A study of Mus musculus with 24 samples.

Results

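The unfolded protein response and the folding machinery of the endoplasmic reticulum (ER) were followed in mouse hearts with and without FKBP12 (gene Fkbp1a), a small immunophilin that binds the cardiac ryanodine receptor and the drug FK506. The module is a list of 40 gene symbols matched to the symbols of the count table, whose 52724 gene rows held 37 of them. The symbols Ero1l, Ero1lb and Vimp were not row names. Vimp is an older symbol of Selenos, itself listed, and Ero1l and Ero1lb are older symbols of Ero1a and Ero1b, which are not counted as members. Of the 37 members, 36 passed the filter on low counts, and Derl3, a Derlin at 0 to 0.340 CPM (counts scaled to library size) in all libraries, did not. The 36 are 10 chaperones and co-chaperones of the ER lumen, 2 lectin chaperones, 6 oxidoreductases or isomerases, 5 sensors and transcription factors, 9 genes of ER-associated degradation and 4 genes of translocation into or export from the ER.

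Proteins of the secretory and membrane systems fold in the ER, where the Hsp70 chaperone BiP (Hspa5), the Hsp90 chaperone GRP94 (Hsp90b1), lectin chaperones and protein disulfide isomerases act on them. When unfolded proteins build up, the sensors IRE1 (Ern1), PERK (Eif2ak3) and ATF6 raise the transcription of these chaperones and of the degradation machinery, in part through spliced XBP1 and through the ER stress element (ERSE) in promoters. Muscle cells keep much of their calcium in the sarcoplasmic reticulum, a specialised form of the same compartment.

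RNA of whole hearts was sequenced in 24 libraries of 4 genotypes, with 6 libraries each, 3 in each of 2 batches. FKl/l hearts carry the floxed Fkbp1a allele and no Cre. FKl/l MCK+ hearts carry the floxed allele and Cre under the muscle creatine kinase promoter, and FKl/l MHC+ hearts the floxed allele and Cre under the α-myosin heavy chain (αMHC) promoter, which per the design text acts earlier in development and at another level of Cre. MHC CRE Only hearts carry the αMHC Cre and no floxed allele, and a Cre-only group for the MCK driver was not analysed here. Both drivers act in muscle cells, and whole hearts also hold RNA of other cells. In which cells the allele was recombined was not measured here. The labels give no age and do not say that each library is a separate animal, and the p-values therefore speak of the spread of libraries, which may be technical in part. In whole hearts, fewer cells of a type and less RNA per cell cannot be told apart.

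Library totals over the gene rows ranged from 27799403 to 40412640 counts. Fkbp1a stood at 121 to 147 CPM in the FKl/l libraries, at 51.1 to 81.1 in FKl/l MCK+ and at 43.5 to 75.7 in FKl/l MHC+, so the deletion groups did not overlap the floxed one (50.2% lower, adjusted p = 0.00032, and 54.9% lower, adjusted p = 5.47e-06, edgeR's quasi-likelihood test). The library labelled MHC CRE Only 1-3 stood at 81.8 CPM, just above the highest deletion library, while its group had a median of 129. Over the 15982 tested genes that are no members, each library was also placed on a line from the mean of batch 1 (at 0) to the mean of batch 2 (at 1), both means taken from the 18 libraries outside MHC CRE Only, less the library being placed. The batch 1 libraries of the other 3 genotypes lay between 0.01 and 0.25 and their batch 2 libraries between 0.74 and 1.06. The batch 1 libraries of MHC CRE Only lay at 0.32, 0.35 and, for library 1-3, 0.84. The main results for members in comparisons with MHC CRE Only are therefore also given without library 1-3, and within each batch. Where no such value is given, the result includes library 1-3.

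**Figure D1:**
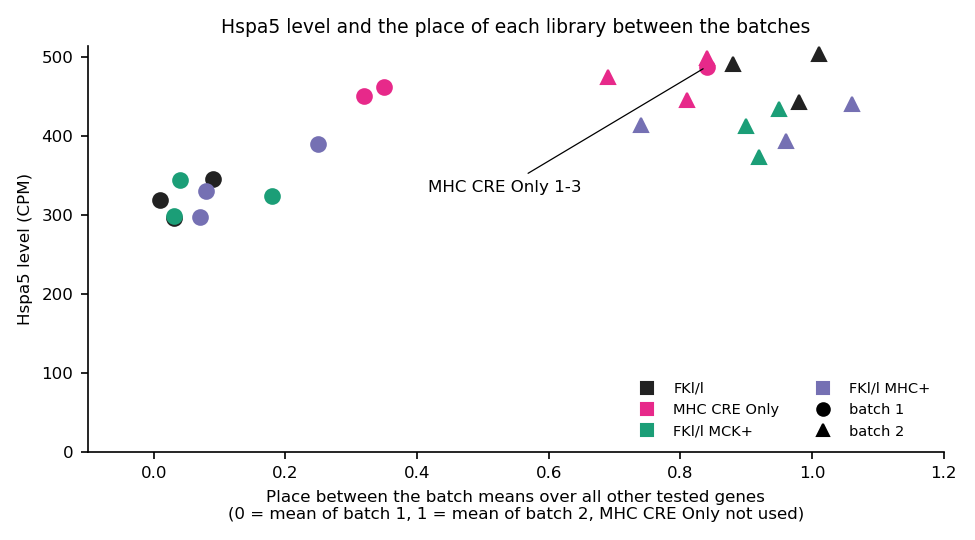
Level of Hspa5 in CPM against the place of each of the 24 libraries between the batch means over all other tested genes, where 0 is the mean of batch 1 and 1 the mean of batch 2 (circles batch 1, triangles batch 2, colours the genotypes). The 3 batch 1 libraries of MHC CRE Only lie at 0.32, 0.35 and 0.84 and hold 450 to 488 CPM, above the 296 to 390 CPM of the other batch 1 libraries.

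Since the promoters of several members carry the ERSE, their sequences are shown here. RefSeq gives a start site window on GRCm38.p6 for 32 of the 37 members, and the 250 bases before the start were searched on both strands. Manf, Hyou1, Atf6, Derl1 and Sec61a1 had no window here, so whether they carry these motifs was not searched. The ERSE, which is CCAAT, 9 bases of any kind and CCACG, was found before 9 members (28.1% of the 32), namely Calr, Canx, Creld2, Derl3, Dnajc3, Hsp90b1 (2 sites), Hspa5, Pdia6 and Syvn1, against 35 of 27025 genes in all (0.13%). The ERSE-II, which is ATTGG, 1 base of any kind and CCACG, was found before Herpud1 (3.12% of members, 0.037% of all genes). The core of the unfolded protein response element, TGACGTGG, was found before Sec24d and Txndc5 (6.25% of members, 0.603% of all genes), and none of these matches overlapped another motif. A match describes the sequence and is not a measured binding site. The 250 bases before the start of Hspa5 (chr2:34771840-34772089, + strand) hold 1 ERSE, from 65 to 47 bases before the start, whose fixed letters are in capitals.
Hspa5: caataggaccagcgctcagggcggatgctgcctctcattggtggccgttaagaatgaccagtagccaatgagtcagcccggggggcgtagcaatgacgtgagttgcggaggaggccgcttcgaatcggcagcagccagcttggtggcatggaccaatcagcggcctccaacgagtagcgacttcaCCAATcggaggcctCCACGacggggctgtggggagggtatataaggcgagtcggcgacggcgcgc

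Sites of the same motif, with 5 bases on either side, are given for the 3 other genes that hold it and were lower in FKl/l MHC+ than in MHC CRE Only hearts (Creld2, Pdia6, Syvn1), as well as for 3 highly expressed genes that were not called in that comparison (Hsp90b1, Calr and, with the ERSE-II, Herpud1). Each is read along the motif, with its strand on the chromosome, and the capitals are the fixed letters.
Creld2, chr15:88819515-88819543, - strand: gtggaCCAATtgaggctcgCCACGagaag
Pdia6, chr12:17266486-17266514, + strand: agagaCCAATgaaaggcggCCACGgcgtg
Syvn1, chr19:6046527-6046555, + strand: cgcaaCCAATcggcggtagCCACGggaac
Hsp90b1, chr10:86705633-86705661, - strand: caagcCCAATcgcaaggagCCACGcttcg
Hsp90b1, chr10:86705528-86705556, + strand: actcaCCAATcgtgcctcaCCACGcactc
Calr, chr8:84847070-84847098, + strand: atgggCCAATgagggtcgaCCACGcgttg
Herpud1, chr8:94386372-94386392, + strand: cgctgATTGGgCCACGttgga

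Levels between genes were compared per kilobase of exon. Calr (calreticulin, a calcium-binding lectin chaperone) led with a mean of 126 CPM per kb over the 24 libraries, followed by Hspa5 with 95.3 and P4hb (protein disulfide isomerase, also a subunit of collagen prolyl 4-hydroxylase) with 88.8. Of the sensors that start the response, Ern1 with 1.08 and Eif2ak3 with 0.761 CPM per kb were the lowest tested members on this scale, while Atf6 had 7.47. Xbp1, the transcription factor that IRE1 splices, had 24.7. The reads of the deposited table are counted per gene, so the spliced and unspliced forms of Xbp1 are not told apart.

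**Figure D2:**
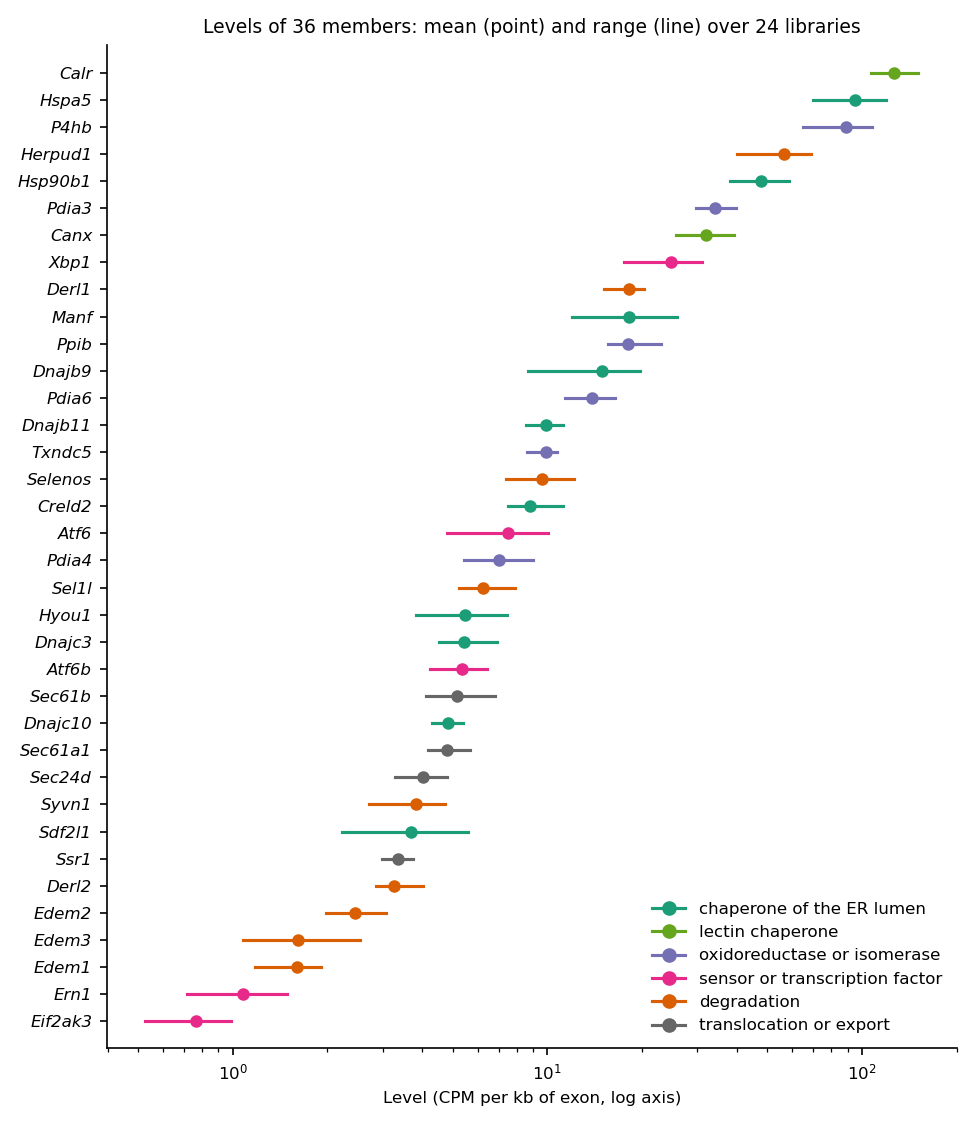
Level of each of the 36 tested members in CPM per kb of exon on a log axis, as the mean (point) and the range (line) over 24 libraries, coloured by role. Calr, Hspa5 and P4hb lie highest, with means of 126, 95.3 and 88.8, and Ern1 and Eif2ak3 lowest, with 1.08 and 0.761.

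FKl/l MHC+ hearts had lower levels of BiP and of several of its partners than the Cre control with the same driver. For each of these genes that control had the highest mean of the genotypes. None of them passed the main test between FKl/l MHC+ and FKl/l. Of the 36 tested members 7 were lower in FKl/l MHC+ than in MHC CRE Only and 0 were higher, against 1.87% of all tested genes called in this comparison and 0.78% called lower. They were Manf, Hyou1, Hspa5 and Creld2 among the lumen chaperones, Pdia6 among the disulfide isomerases, Xbp1 among the transcription factors and Syvn1 in degradation. The differences were modest, between 0.24 and 0.57 on the log2 scale. Of the 36 members 30 had a negative log2 fold change, with a median of -0.099 beside -0.016 over all tested genes.

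Manf, an ER protein that binds BiP and is secreted when ER calcium falls, had the largest difference of the 7. Its level was 59.7, 83.1 and 91.2 CPM (lowest, median, highest) in MHC CRE Only, 51.6, 59.1 and 83.3 in FKl/l, 43.5, 56.5 and 68.2 in FKl/l MCK+, and 42.2, 55.0 and 67.4 in FKl/l MHC+. The library MHC CRE Only 1-3 was the low one of its group, and the other 5 libraries of that group were at 77.9 or above, over every FKl/l MHC+ library. Manf was lower by a log2 fold change of -0.57 (SE 0.0978, adjusted p = 0.00187, edgeR quasi-likelihood test with Benjamini-Hochberg adjustment over 16018 genes).

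Hyou1, the large Hsp70 relative that exchanges nucleotide on BiP, had 37.5, 45.5 and 53.7 CPM in MHC CRE Only and 27.6, 37.1 and 45.7 in FKl/l MHC+. The FKl/l libraries were at 31.0, 39.3 and 48.0 and the FKl/l MCK+ libraries at 28.2, 37.0 and 44.3. The groups overlap over both batches, but within batch 1 and within batch 2 every FKl/l MHC+ library was below every MHC CRE Only library. The log2 fold change with batch in the model was -0.34 (SE 0.0615, adjusted p = 0.00291, edgeR).

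Hspa5 itself had 446, 468 and 499 CPM in MHC CRE Only and 298, 392 and 440.3 in FKl/l MHC+, and these 2 groups did not overlap. Over all tested genes, 0.512% had groups that did not overlap with FKl/l MHC+ lower, and 2 members, Hspa5 and Pdia6, were among them. The FKl/l libraries spanned 296, 394 and 504 CPM and the FKl/l MCK+ libraries 299, 359 and 434. Hspa5 was lower in FKl/l MHC+ than in MHC CRE Only by a log2 fold change of -0.33 (SE 0.0851, adjusted p = 0.0388, edgeR).

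Creld2, a disulfide isomerase-like ER protein known as a target of the response, had 12.1, 13.8 and 15.3 CPM in MHC CRE Only and 10.2, 10.8 and 13.8 in FKl/l MHC+, a log2 fold change of -0.32 (SE 0.0783, adjusted p = 0.0316, edgeR). Library FKl/l MHC+ 1-1 was the high one of its group, and the other 5 were at or below 11.2. Creld2 had 10.97, 11.2 and 12.5 CPM in FKl/l and 10.7, 11.4 and 13.0 in FKl/l MCK+, near the FKl/l MHC+ level. Sdf2l1, a partner of the co-chaperone ERdj3, had 3.59, 5.48 and 6.19 CPM in MHC CRE Only and 2.57, 3.56 and 5.26 in FKl/l MHC+. Its log2 fold change of -0.52 (SE 0.176) was the second lowest of the members, but it did not pass the test (adjusted p = 0.121, edgeR), and the groups overlapped. The FKl/l libraries had 2.47, 3.83 and 4.75 CPM and the FKl/l MCK+ libraries 2.80, 3.48 and 4.54.

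The other lumen chaperones were not called. Hsp90b1 had 193, 203 and 221 CPM in MHC CRE Only, 182, 190.4 and 201 in FKl/l, 154, 175 and 199.6 in FKl/l MCK+ and 184, 198 and 236 in FKl/l MHC+, with overlap throughout. Its log2 fold change between FKl/l MHC+ and MHC CRE Only was within its error of 0. Dnajb9, the co-chaperone ERdj4, had 35.2, 40.4 and 45.0 CPM in MHC CRE Only and 28.5, 36.2 and 44.1 in FKl/l MHC+, which overlap. Its FKl/l libraries ran from 27.1 over 40.8 to 50.3 and its FKl/l MCK+ libraries from 22.1 over 34.5 to 47.5. Calr had 359, 395 and 435 CPM in MHC CRE Only, 316, 351 and 408 in FKl/l MHC+, 308, 363 and 377 in FKl/l and 316, 352 and 373 in FKl/l MCK+, with overlap, and an unadjusted p of 0.0333 and an adjusted p of 0.267 (edgeR).

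Among the isomerases Pdia6, which also attenuates IRE1, had 54.0, 55.8 and 61.6 CPM in MHC CRE Only and 42.7, 48.3 and 53.1 in FKl/l MHC+. The groups did not overlap, while the FKl/l libraries, at 49.0, 50.7 and 57.95, overlapped both. The log2 fold change was -0.24 (SE 0.0612, adjusted p = 0.0373, edgeR). FKl/l MCK+ libraries had 47.1, 50.5 and 55.3.

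Xbp1 had 74.9, 93.7 and 101 CPM in MHC CRE Only and 65.4, 76.7 and 82.7 in FKl/l MHC+, with overlap through the lowest MHC CRE Only library, 1-3, alone. The other groups were wider, at 56.8, 79.6 and 98.3 in FKl/l and 57.1, 78.0 and 91.0 in FKl/l MCK+. The log2 fold change was -0.28 (SE 0.0732, adjusted p = 0.0441, edgeR), the weakest of the 7 calls. The sensors Ern1, Eif2ak3 and Atf6 did not pass the test. Ern1 had 6.28, 9.11 and 11.4 CPM in FKl/l, 7.57, 9.25 and 11.1 in MHC CRE Only, 6.496, 8.56 and 10.8 in FKl/l MCK+ and 5.85, 8.43 and 12.2 in FKl/l MHC+. Eif2ak3 had 4.36, 4.49 and 5.81 CPM in FKl/l, 3.18, 4.69 and 5.62 in MHC CRE Only, 3.59, 4.40 and 5.32 in FKl/l MCK+ and 3.24, 5.05 and 5.94 in FKl/l MHC+. For each of the sensors every genotype overlapped every other. Atf6, which is cut in the Golgi to free a transcription factor, had 54.3, 67.8 and 74.6 CPM in FKl/l, 61.7, 69.4 and 92.4 in MHC CRE Only, 44.2, 66.6 and 80.2 in FKl/l MCK+ and 66.4, 67.4 and 86.7 in FKl/l MHC+.

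Syvn1, the ubiquitin ligase HRD1 of ER-associated degradation, had 18.5, 21.7 and 23.02 CPM in MHC CRE Only and 13.1, 16.7 and 20.0 in FKl/l MHC+. Within each batch the FKl/l MHC+ libraries were all below the MHC CRE Only libraries. FKl/l had 14.8, 18.5 and 21.7 and FKl/l MCK+ 15.7, 18.2 and 20.6. The log2 fold change was -0.36 (SE 0.0676, adjusted p = 0.00394, edgeR). Its partner Sel1l and Herpud1, which assembles the same complex, were not called. Herpud1 had 134, 144 and 161 CPM in MHC CRE Only, 112, 129 and 140.1 in FKl/l MHC+, 97.2, 127 and 141 in FKl/l and 93.7, 134 and 152 in FKl/l MCK+.

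Of the 4 genes of translocation and export 0 were called by edgeR or DESeq2 or limma voom, and none had an unadjusted p under 0.05 in this comparison. The members with the highest log2 fold changes were Sec61b, a small subunit of the translocon, with 0.17 (SE 0.102), Derl2 with 0.09 (SE 0.0627) and Eif2ak3 with 0.05 (SE 0.119), none of which passed the test.

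**Figure D3:**
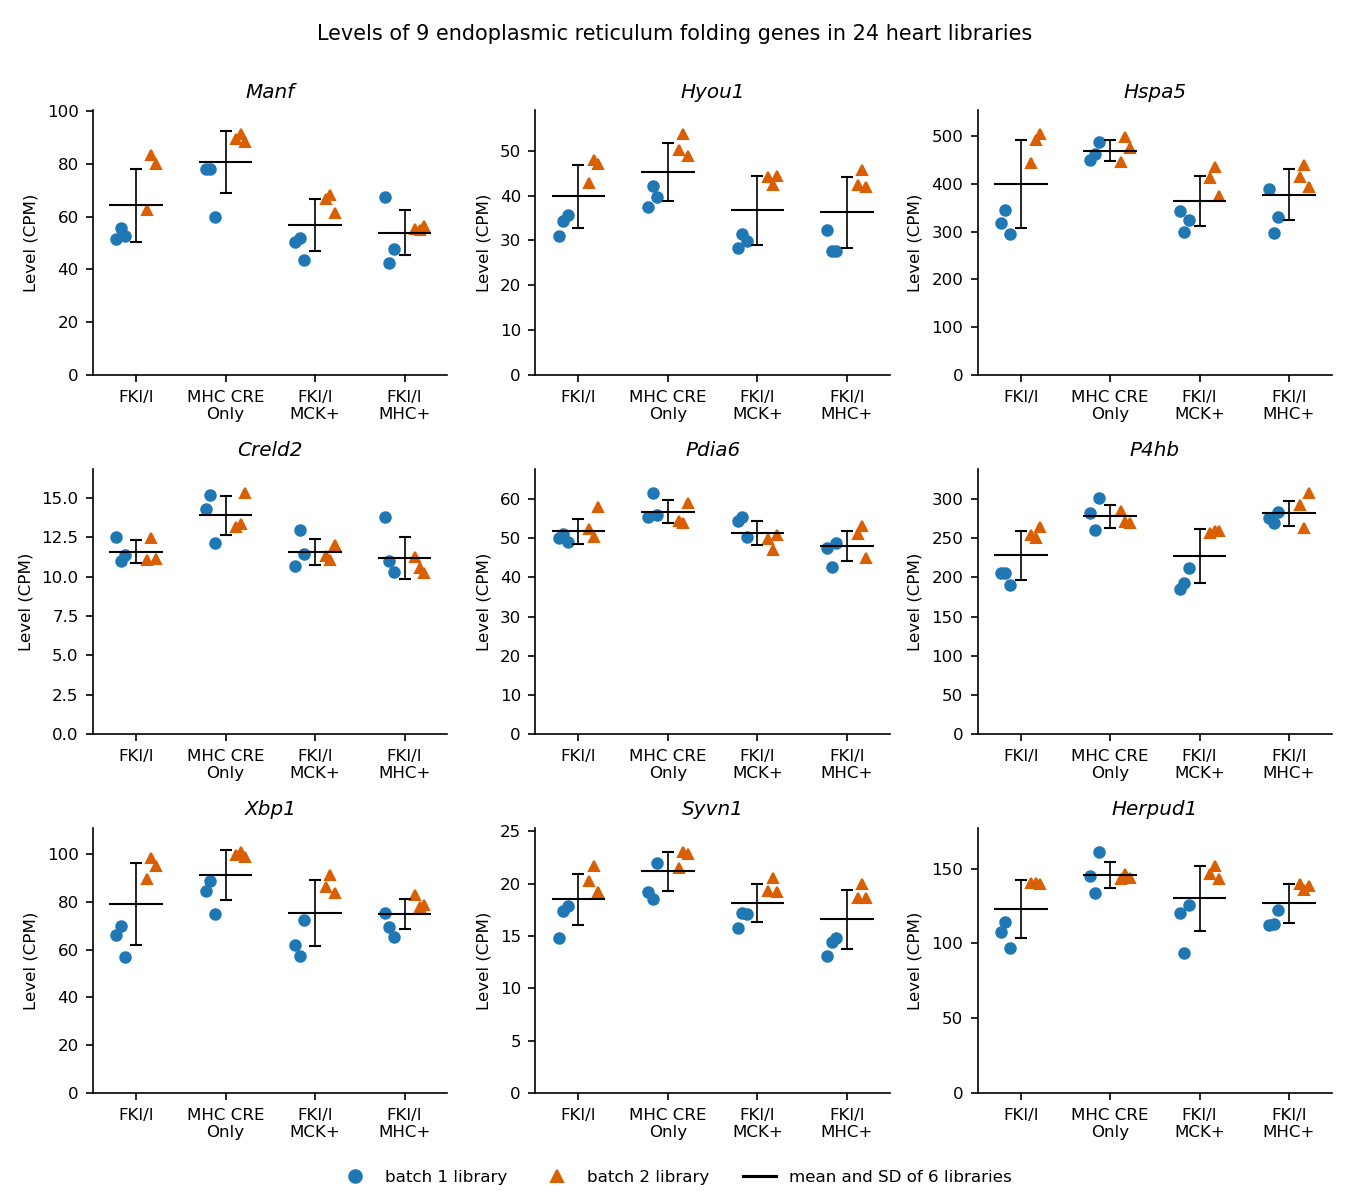
Levels in CPM of 9 members in the 24 libraries by genotype, with circles for batch 1, triangles for batch 2 and lines for the mean and SD of 6 libraries. Manf, Hyou1, Hspa5, Creld2, Pdia6, Xbp1 and Syvn1 are higher in MHC CRE Only than in FKl/l MHC+, P4hb is high in both of these groups, and Herpud1 was not called.

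Limits of these calls were as follows. When the 24 libraries were left out one at a time, Manf, Hyou1 and Syvn1 passed each time, and the call was lost 7 times for Hspa5, 8 for Pdia6, 9 for Creld2 and 14 for Xbp1. The count of 7 fell to 3 without MHC CRE Only 1-1 or 1-2 or FKl/l MHC+ 1-2, 1-3 or 2-3, and to 4 without MHC CRE Only 2-1 or 2-2. The shares of all tested genes in these fits are not given, so whether the members fell more than other genes cannot be told. Without MHC CRE Only 1-3 the count was again 7 (2.08% of all tested genes), but Pdia4 took the place of Hspa5, whose log2 fold change was then -0.28 (adjusted p = 0.0776, edgeR). With MHC CRE Only 2-3 and FKl/l 1-1, the libraries richest in airway and lung markers, left out as well, 5 were called (1.4%), and Hspa5 and Pdia6 were not among them. No member was called without the batch term, where 42 of all 16018 tested genes were, or in a test against a fold of 1.2 (17 genes). In the authors' deposited table, whose statistic is 0 for log2 fold changes of up to 0.263 in size, 0 of the 36 members and 11 of all 16363 genes listed are called in this comparison. With such a statistic its calls are not a test against a difference of 0, unlike those of the main fit. Of 8 cardiomyocyte, 8 fibroblast, 8 endothelial and 6 smooth muscle and pericyte markers 0 were called between these groups by edgeR. The 5 tested airway and lung markers had 0 calls but a median log2 fold change of -3.17. The summed level of that list was 0.152 to 59.5 CPM in FKl/l MHC+ (median 6.13) and 0.642 to 894 in MHC CRE Only (median 28.9). Of 8 macrophage markers 1 was called higher, with a summed level of 166 to 220.0 CPM in FKl/l MHC+ and 154 to 204 in MHC CRE Only, and of 7 markers of B and plasma cells, which are rich in ER, 1 was called lower, at 3.68 to 12.3 and 3.88 to 10.6 CPM. Their part in the result was not tested.

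Against the floxed hearts without Cre, the same FKl/l MHC+ libraries showed 1 called member of 36, against 1.71% of all tested genes. This was P4hb, which was higher. It had 263, 279 and 308 CPM in FKl/l MHC+ and 191, 228 and 265 in FKl/l, with an overlap of 1 library on each side. The log2 fold change was 0.31 (SE 0.0729, adjusted p = 0.0198, edgeR). P4hb was as high in MHC CRE Only, with 260.3, 277 and 301 CPM and a log2 fold change against FKl/l of 0.30 (SE 0.0730), which did not pass the edgeR test (adjusted p = 0.0939) and passed in DESeq2 (adjusted p = 0.0116). Between FKl/l MHC+ and MHC CRE Only the log2 fold change of P4hb was 0.02 (SE 0.0728). Leaving out a single library ended the call of P4hb for 5 libraries: 1-2 and 1-3 of FKl/l, and 1-2, 1-3 and 2-3 of FKl/l MHC+. Within batch 1 P4hb was the 1 member called (log2 fold change 0.46, adjusted p = 0.000881, edgeR, against 6.32% of all tested genes), and within batch 2 there were 0 (0.343%), with P4hb at 0.17 (adjusted p = 0.527). A fit of batch 2 alone called 1 member, which was Manf (-0.44, adjusted p = 0.00891, against 1.0% of all tested genes), and not P4hb (0.16, adjusted p = 0.271, edgeR).

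The 7 genes that were lower against MHC CRE Only did not pass the test against FKl/l. Manf had the lowest log2 fold change with -0.23 (SE 0.0977, adjusted p = 0.256, edgeR), followed by Edem2, a mannosidase-like degradation factor, with -0.17, and by Atf6b, the ATF6 relative, and Syvn1 with -0.16 each (SE 0.0838 and 0.0677). Manf was called, at -0.35, when FKl/l MHC+ 1-1, its highest library there, was left out. After P4hb the highest values were those of Derl2 with 0.16 (SE 0.0627) and Edem3, another mannosidase-like factor, with 0.15 (SE 0.126). Of the 36 members 25 were negative, with a median of -0.055 beside -0.003 over all tested genes.

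No member of the module passed the test for the MCK-driven deletion. Of the 36 members 0 were called by edgeR, DESeq2 or limma voom, against 0.0499% of all tested genes by edgeR, and 1 had an unadjusted p under 0.05 (5.24% of all tested genes did). The median log2 fold change was -0.035 beside 0.004 over all genes, with 29 members negative. All 10 lumen chaperones were among them, as were the 2 lectin chaperones and the 4 genes of translocation or export. The share of negative values over all tested genes is not given. The lowest values were Selenos, a selenoprotein of the degradation channel, with -0.18 (SE 0.0821, adjusted p = 0.923, edgeR), and Manf (SE 0.0975) and Dnajb9 with -0.17 each. The highest were Edem3 with 0.09 (SE 0.126), Herpud1 with 0.08 (SE 0.0767) and Sel1l with 0.05 (SE 0.0639). A p that misses the threshold does not show equal levels.

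Between the deletions, 1 of 36 members was called, against 2.15% of all tested genes. P4hb was higher in FKl/l MHC+ than in FKl/l MCK+, where it had 186, 235 and 259.6 CPM, below every FKl/l MHC+ library, and 0.518% of all tested genes had groups apart in this direction. The log2 fold change was 0.32 (SE 0.0730, adjusted p = 0.0188, edgeR). Leaving out library 1-1 of FKl/l MCK+, or 1-3 or 2-3 of FKl/l MHC+, ended this call. Within batch 1 P4hb, Atf6b and Pdia4 were called (against 7.56% of all tested genes), and within batch 2 there were 0 members (0.212%), P4hb having log2 fold changes of 0.49 and 0.15. In the same comparison 5 of 8 endothelial markers were called lower, with a summed level of 759 to 898 CPM in FKl/l MHC+ and 864 to 1251 in FKl/l MCK+. Of 8 fibroblast markers 1 was lower (829 to 985 and 816 to 1274 CPM), and of 7 B and plasma cell markers 1 was lower (3.68 to 12.3 and 4.16 to 14.8 CPM), and no marker of these lists was at 0 in all libraries of either group. Their part in the result was not tested. Hsp90b1 followed with 0.19 (SE 0.0641), with an adjusted p of 0.131 by edgeR and 0.0315 by DESeq2, which called 2 members and 3.61% of all genes, and Derl2 with 0.17 (SE 0.0627). The lowest were Atf6b with -0.20 (SE 0.0838), Syvn1 with -0.14 (SE 0.0678) and Pdia4, an isomerase, with -0.13 (SE 0.0924), none of which passed the test.

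**Figure D4:**
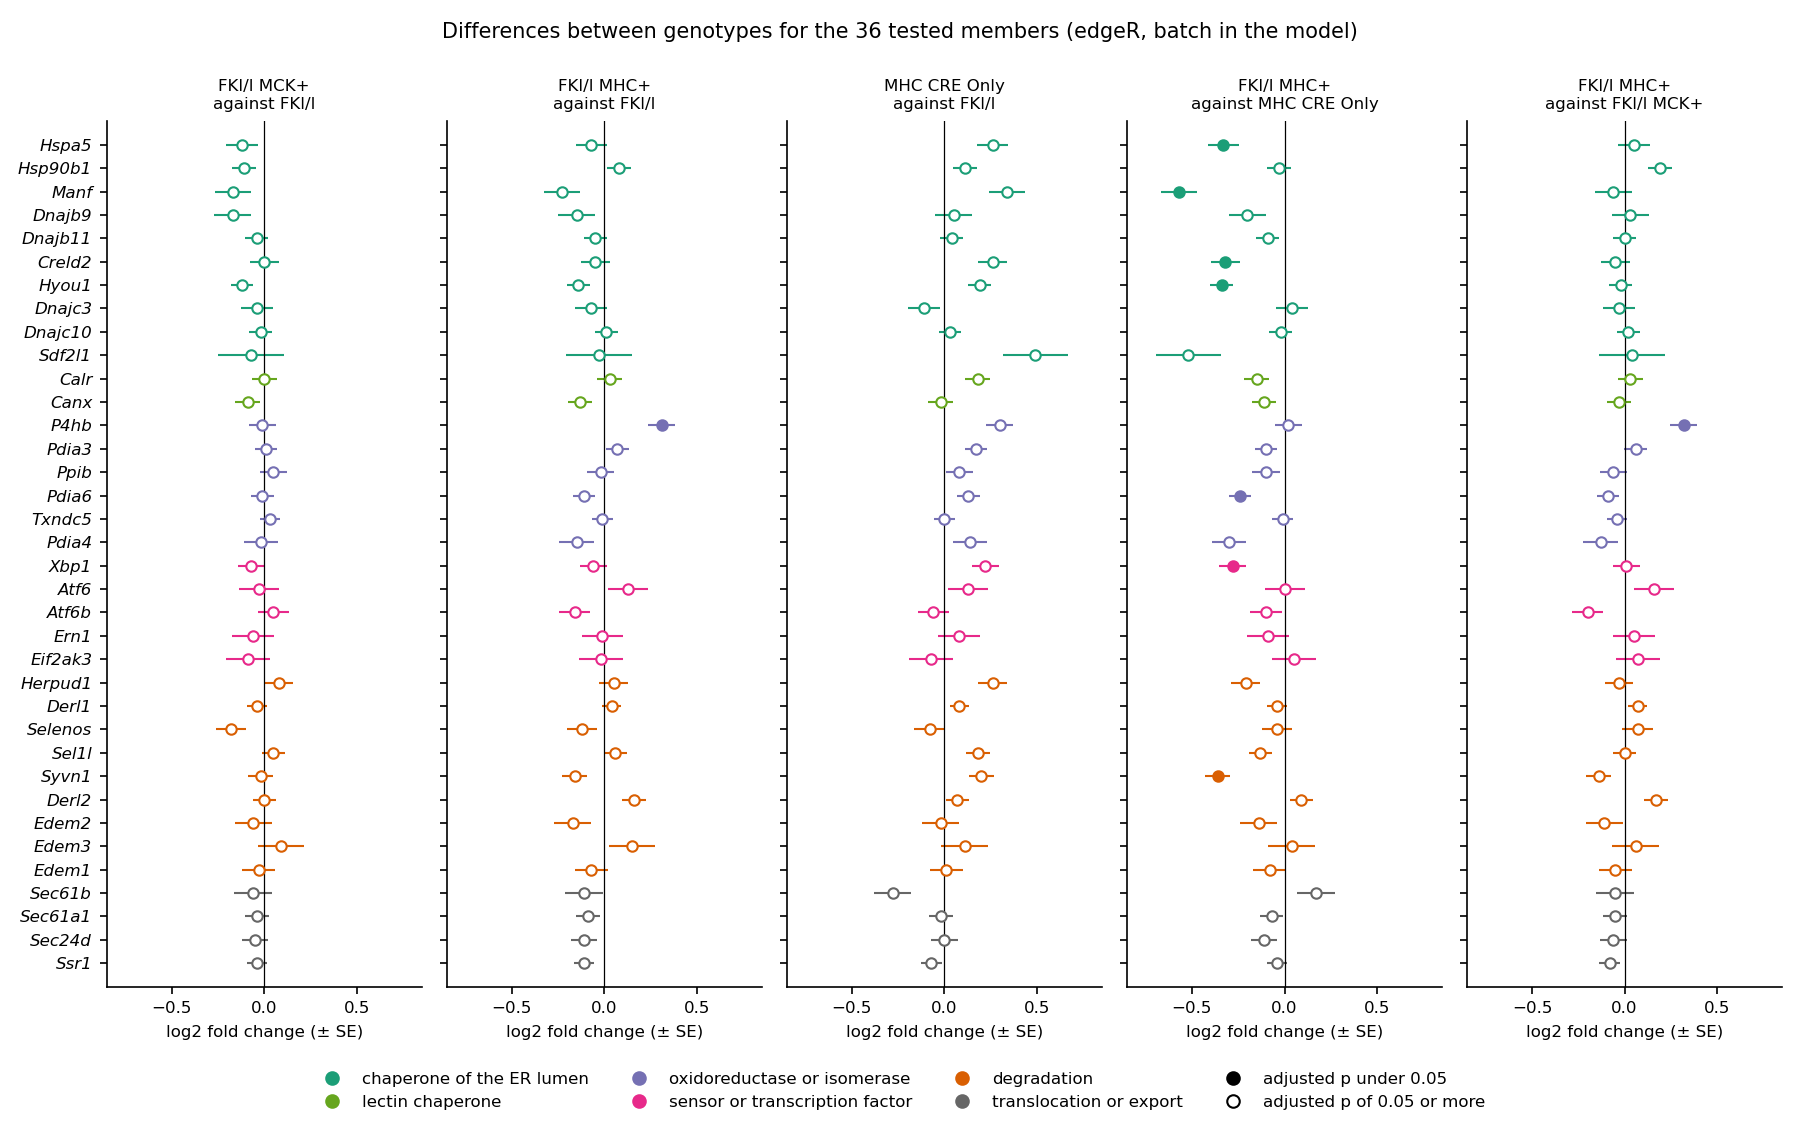
Log2 fold changes with their SE for the 36 tested members in the 5 comparisons of genotypes, coloured by role, with filled points for an adjusted p under 0.05 (edgeR, batch in the model). Filled points lie in 3 panels, with 7 members lower in FKl/l MHC+ against MHC CRE Only and P4hb higher in FKl/l MHC+ against FKl/l and against FKl/l MCK+.

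Between the 2 control groups no member passed the main test. Of the 36 log2 fold changes of MHC CRE Only against FKl/l 25 were positive, with a median of 0.083 beside 0.004 over all tested genes, and the median was 0.044 without MHC CRE Only 1-3. In MHC CRE Only against FKl/l 0 of the 36 members were called by edgeR or limma voom, against 0.0437% of all tested genes by edgeR. At an unadjusted p under 0.05 there were 14 members, 13 of them higher, where 12.9% of all genes and, for higher values, 7.73% lie. DESeq2 called 4 members higher (P4hb, Herpud1, Hyou1 and Manf), against 1.29% of all genes by that tool, with adjusted p-values between 0.0116 and 0.0497. The highest log2 fold changes were Sdf2l1 with 0.49 (SE 0.175), Manf with 0.34 (SE 0.0973) and P4hb with 0.30 (SE 0.0730). The lowest were Sec61b with -0.28 (SE 0.102), Dnajc3, the PKR inhibitor p58IPK, with -0.11 (SE 0.0871) and Selenos with -0.08 (SE 0.0819). Sel1l was the only member whose groups did not overlap, at 54.6, 55.2 and 67.5 CPM in MHC CRE Only and 49.0, 50.4 and 52.9 in FKl/l, where 0.325% of all tested genes had groups that did not overlap with MHC CRE Only higher. This comparison shares its libraries with those above, so a high MHC CRE Only library enters both with opposite sign.

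In the test of any difference among the 4 genotypes, 5 of the 36 members were called, against 2.44% of all tested genes. These were Manf, Hyou1, P4hb, Syvn1 and Hspa5.

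More members differed between the batches than among the genotypes. Of the 36 members 18 differed between batch 2 and batch 1, with 14 higher and 4 lower in batch 2. Of all tested genes 38.4% were called in this test, and 22.2% of all tested genes were called higher in batch 2. The sensors Ern1 (log2 fold change 0.48, SE 0.0798) and Eif2ak3 (0.33, SE 0.0842) and the transcription factor Xbp1 (0.36, SE 0.0519) were higher in batch 2. So were the chaperones Hyou1 (0.48, SE 0.0436), Dnajb9 (0.47, SE 0.0711), Manf (0.33, SE 0.0691) and Hspa5 (0.31, SE 0.0603). The adjusted p-values of all these genes were at most 0.00256 (edgeR). Dnajb11, Sec61b, Sec61a1 and Selenos were lower. The labels do not say what separates the batches. Cell markers and the mitochondrial share also moved with batch. Of 8 cardiomyocyte markers 7 were called, 5 of them lower in batch 2, with a summed level of 51770.0 to 60964 CPM in batch 1 and 45891 to 52463 in batch 2. Of 8 endothelial markers 4 were called, each lower in batch 2 (837 to 1251 and 759 to 931 CPM), and mitochondrially encoded genes took 27.6 to 36.5% of counts in batch 1 and 25.7 to 29.9% in batch 2. Their part in the result was not tested.

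The number of members called between the batches differed among the genotypes, and so did the share of all tested genes. The low count in MHC CRE Only is therefore not particular to the members. Within FKl/l 13 members were called, each higher in batch 2 (23.8% of all tested genes were called), within FKl/l MCK+ 15, 12 of them higher (21.2%), and within FKl/l MHC+ 10, each higher (23.6%). Within MHC CRE Only 1 was called, Hyou1 (5.18%). Its batch 1 libraries include 1-3, which lay at 0.84 between the batch means, and this count was not taken without it. Hspa5 is given as an example. It stood at 296 to 345 CPM in the batch 1 libraries of FKl/l and 444 to 504 in batch 2, at 299 to 344 and 374 to 434 in FKl/l MCK+, and at 298 to 390 and 394 to 440.3 in FKl/l MHC+. In MHC CRE Only it was at 450.3 to 488 in batch 1 and at 446 to 499 in batch 2, so the batches overlapped in that group alone.

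The interaction of genotype and batch was called for 4 of the 36 members, Edem3, P4hb, Atf6 and Hspa5, against 4.91% of all tested genes (edgeR). From 1 fit with a mean for each genotype and batch, MHC CRE Only against FKl/l gave 10 called members within batch 1, where 9.64% of all tested genes were called, and 0 within batch 2, where 0.00624% were. The 9 that were higher in batch 1 were Calr, Xbp1, P4hb, Atf6, Hspa5, Pdia3, Herpud1, Manf and Edem3, and Sec61b was lower. Hspa5 was higher by 0.54 (SE 0.0925, adjusted p = 0.00237, edgeR) on the log2 scale in batch 1, and its log2 fold change was -0.02 (SE 0.0921) in batch 2. The difference between the batches was itself called for 6 members, Hspa5, P4hb, Atf6, Herpud1, Dnajb9 and Edem3, against 5.57% of all tested genes.

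These counts fell without library MHC CRE Only 1-3. Without it, 4 members were called within batch 1 (Xbp1, P4hb, Hspa5 and Herpud1, against 0.859% of all tested genes) and the difference between batches was called for 0, with 0.0% of all tested genes called and a lowest adjusted p among members of 0.0664 (Hspa5, edgeR). Hspa5 was still higher by 0.51 in batch 1 (SE 0.0986, adjusted p = 0.0198, edgeR) and P4hb by 0.44 (SE 0.0750, adjusted p = 0.00839). The test of the interaction called 0 members without that library, and likewise without MHC CRE Only 2-1, 2-2 or 2-3, 1 without FKl/l 2-3 or FKl/l MCK+ 2-2 and 2 without FKl/l MHC+ 1-3. The shares of all tested genes in these fits are not given here. Over all tested genes the interaction was called for 787 in the main fit. Without MHC CRE Only 1-3 and 2-3 and FKl/l 1-1 it was called for 61, so the loss was not particular to the members. A fit of the 12 libraries of batch 1 alone, with a spread estimated from them, called 0 members in MHC CRE Only against FKl/l (0.105% of all tested genes).

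FKl/l MHC+ was also set against the Cre control within each batch. Within batch 1 there were 9 called members (against 4.53% of all tested genes), each lower, and within batch 2 there were 2 (1.83%), Manf lower and Edem3 higher. Without MHC CRE Only 1-3 there were 5 within batch 1 (Manf, Hyou1, Hspa5, Syvn1 and Pdia4, against 1.12%) and 4 within batch 2 (Manf, Creld2, Xbp1 and Edem3, against 2.96%). Manf was lower in both, with a log2 fold change of -0.45 (adjusted p = 0.0468, edgeR) in batch 1 and of -0.69 (adjusted p = 0.00954) in batch 2. Edem3 turned from -0.44 (SE 0.123) to 0.51 (SE 0.119), the only member for which the difference between batches was called (adjusted p = 0.00967, edgeR, against 3.07% of all tested genes). Its batch 2 libraries held 12.4, 16.2 and 14.7 CPM in FKl/l MHC+ and 10.5, 10.0 and 10.0 in MHC CRE Only, and its batch 1 libraries 8.02, 7.39 and 7.07 against 8.18, 9.80 and 12.5, the last being library 1-3. Without that library the log2 fold changes of Edem3 were -0.26 and 0.51, and the difference was still called (adjusted p = 0.0337, edgeR). A fit of batch 1 alone called 0 members (0.483% of all tested genes), and a fit of batch 2 alone called 5 (Manf, Hyou1, Creld2, Xbp1 and Edem3, against 5.72%).

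**Figure D5:**
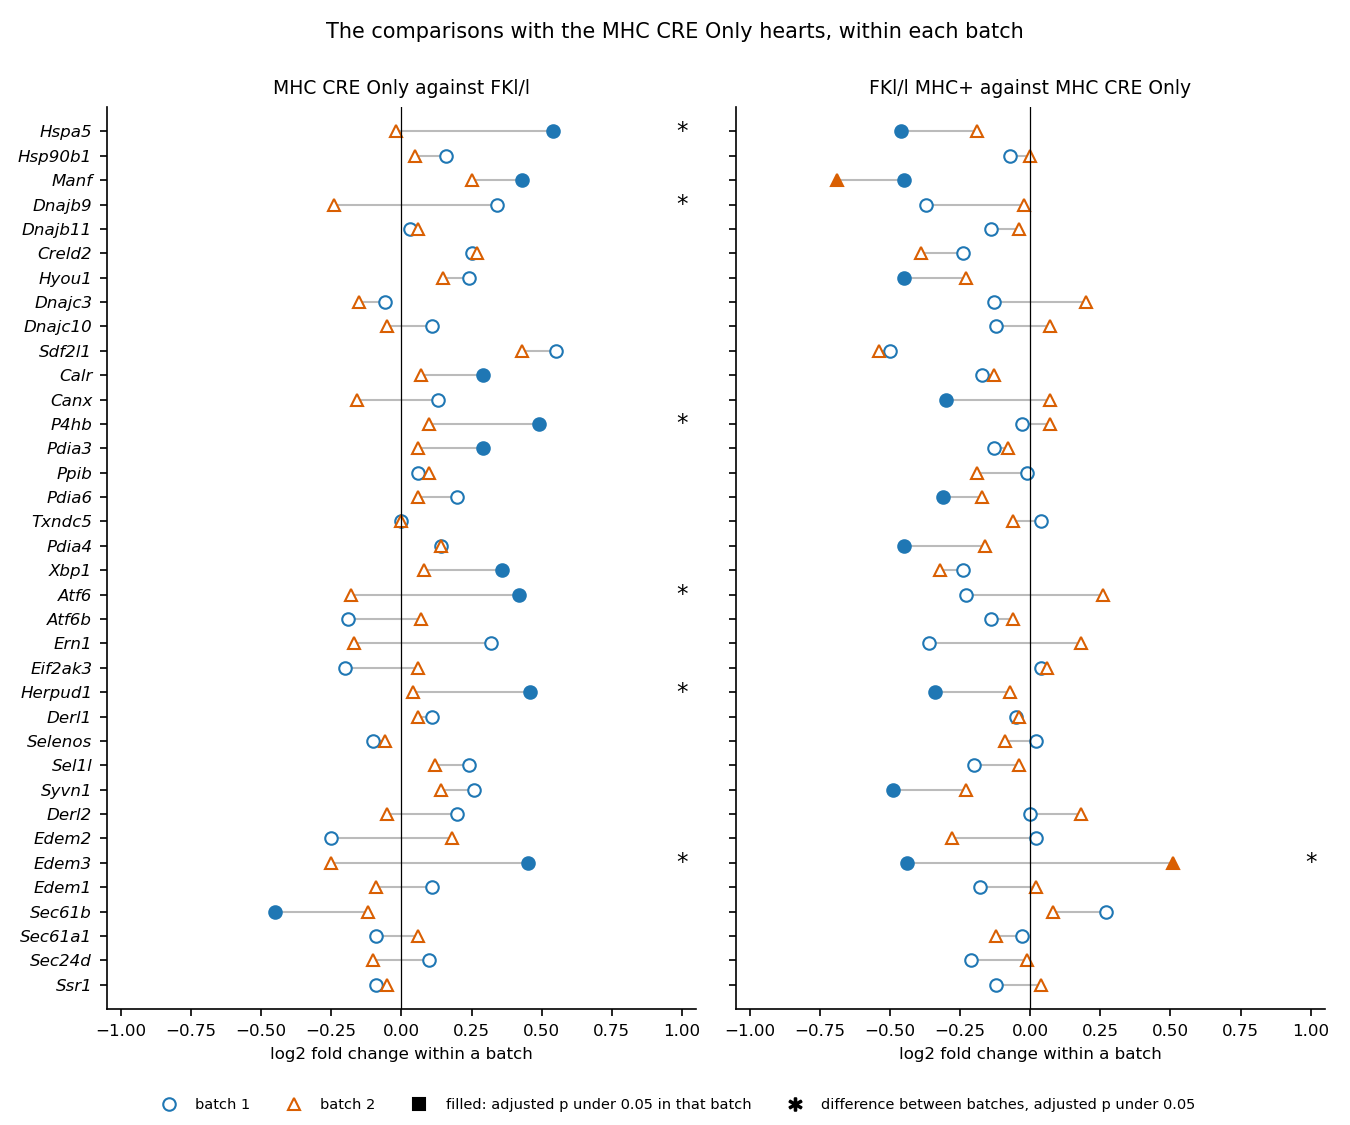
Log2 fold changes of the 36 members within batch 1 (circles) and batch 2 (triangles) for MHC CRE Only against FKl/l and for FKl/l MHC+ against MHC CRE Only, with filled symbols for an adjusted p under 0.05 within that batch and stars for a called difference between batches. Hspa5 moves from 0.54 in batch 1 to -0.02 in batch 2 in the first comparison, and Edem3 from -0.44 to 0.51 in the second.

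The other branches of the stress response and the rest of the secretory pathway were read from a list of 112 further genes, of which 110 were tested. Against FKl/l 0 of them were called by edgeR in FKl/l MCK+, in FKl/l MHC+ or in MHC CRE Only. Of all tested genes 0.0499%, 1.71% and 0.0437% were called in these comparisons. At an unadjusted p under 0.05 there were 7 of the 110 in FKl/l MCK+, against 5.24% of all tested genes. In FKl/l MHC+ there were 17, with 10 higher and 7 lower, and the share of all tested genes is not given here. In MHC CRE Only there were 24, against 12.9% of all tested genes. Genes downstream of PERK were not called higher in either deletion. Ddit3 (CHOP, a pro-apoptotic factor of prolonged ER stress) had a mean of 8.70 CPM in FKl/l, 7.12 in FKl/l MCK+, 7.13 in FKl/l MHC+ and 6.80 in MHC CRE Only. It was called among the 4 genotypes (adjusted p = 0.0480, edgeR) but in no pair, its log2 fold changes against FKl/l being -0.30 (SE 0.0849), -0.27 (SE 0.0849) and -0.35 (SE 0.0849). Atf4, the transcription factor that PERK signalling translates, had means of 31.4, 28.3, 26.9 and 24.5 CPM in the same order, and Atf3, an early stress factor, 5.59, 4.05, 5.10 and 4.32, with no call in any pair.

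Of these 110 genes 2 were called in FKl/l MHC+ against MHC CRE Only, both higher, a share near the 1.87% of all tested genes. They were Ubxn4, a degradation factor that recruits p97 to the ER (log2 fold change 0.39, SE 0.0717, adjusted p = 0.00305, edgeR), and Sec62, a translocon partner (0.43, SE 0.106, adjusted p = 0.0336). Both also differed between batches, with log2 fold changes of -0.56 and -1.01 in batch 2. Between the deletions 2 were called, against 2.15% of all tested genes. Creb3, a transcription factor cleaved in the Golgi like ATF6, was higher in FKl/l MHC+ (log2 fold change 0.24, SE 0.0587, adjusted p = 0.0298, edgeR). Map3k5, the kinase ASK1, was lower there (-0.32, SE 0.0769, adjusted p = 0.0239, edgeR). Batch was called for 62 of the 110 genes (38.4% of all tested genes) and its interaction with genotype for 11 (4.91%). Ero1a and Ero1b, the oxidases that recharge protein disulfide isomerase and the present symbols of 2 listed names, were not called in any comparison of genotypes by edgeR and had means of 11.5 to 12.5 and 3.82 to 4.53 CPM over the genotypes.

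Across the 24 libraries the levels of members fall into clusters by batch and genotype, so their relation to Hspa5 was taken from log2 CPM as deviations from the mean of each genotype and batch. Of the 35 relations 0 passed Benjamini-Hochberg adjustment (permutation within genotype and batch, 100000 resamples). The closest to Hspa5 was Pdia3, the isomerase ERp57 that works with calreticulin, with Pearson r = 0.72 (permutation p = 0.0042, adjusted p = 0.0784) and Spearman rho = 0.69 (permutation p = 0.00502, adjusted p = 0.0734). Its r was 0.64 without the 2 libraries whose Hspa5 was farthest from the median. Dnajb9 followed with r = 0.64 (permutation p = 0.00539, adjusted p = 0.0784) and rho = 0.65 (permutation p = 0.00629, adjusted p = 0.0734).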

How the data were processed

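RNA of whole mouse hearts was sequenced in 24 strand-specific libraries. The submitters' processing notes name bcl2fastq 2.17, FastQC, Trim Galore, STAR, RSEM and the mm10 build; for the role of each tool, the gene annotation and how strand was counted, the answer is not given in the sources used here. The authors deposited raw counts per gene. Their tables of comparisons list, per the file headers, log2 values (fold change and mean expression), scores (test statistics) and p-values, raw and adjusted. These served only for the count of members called there. In them the statistic is 0 for log2 fold changes of up to 0.263 in size.

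Of 56384 rows, 3660 named by transcript (0.873 to 4.28% of counts) were left out of tests. Counts were tested with edgeR 4.0.16 in R 4.3.3 (quasi-likelihood, robust, TMM scaling, filterByExpr by genotype) over all 24 libraries with genotype and batch as terms, with Benjamini-Hochberg adjustment across 16018 genes and a threshold of 0.05. The SE is the log2 fold change divided by the root of the F statistic. Alternatives were DESeq2 1.42.0, limma 3.58.1 (voom), other scalings and filters, single batches, a replicate block and each library left out. Fits within batches, the fit without MHC CRE Only 1-3 within batches and the correlation of deviations were chosen after seeing the data. Mitochondrially encoded genes took 25.7 to 36.5% of counts.

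The members and lists were chosen with earlier results of these data known. Genes were named where they were called, where they had the 3 highest or lowest log2 fold changes of a comparison, or for their role; Edem3 and Sel1l (its levels) were named after their values were seen. Lengths come from GENCODE M21 exons and promoter sequences from RefSeq, both on GRCm38.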

Additional observations from a re-analysis of the deposited data

Results flagged for a closer look

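In 6 of 144 groups of 6 libraries the highest library stood apart from the other 5, by a gap of 0.628 to 0.766 of the group's range; chance flags about 1 in 20 groups. Hsp90b1 was at 235.71 CPM in FKl/l MHC+ 2-2, against 184.28 to 200.64 in the other libraries of that genotype. Creld2 was at 13.772 CPM in FKl/l MHC+ 1-1 (others 10.221 to 11.229), and Derl2 at 32.33 in FKl/l MHC+ 2-1 (others 26.343 to 28.569). Atf6b was at 16.927 CPM in FKl/l MCK+ 1-2 (others 15.225 to 15.692). Eif2ak3 was at 5.8087 CPM in FKl/l 2-1 (others 4.3612 to 4.7004). Sel1l was at 67.472 CPM in MHC CRE Only 1-3 (others 54.567 to 58.796), the library that lay with batch 2 over all other genes.

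The effect of a genotype differed between the batches in 7 cases by the edgeR test of that difference. For FKl/l MHC+ against MHC CRE Only, the log2 fold change of Edem3 was 0.95 higher in batch 2 than in batch 1 (SE 0.171, adjusted p = 0.00967). For MHC CRE Only against FKl/l, the difference of batch 2 from batch 1 was -0.70 for Edem3 (adjusted p = 0.0237), -0.60 for Atf6 (0.0287), -0.58 for Dnajb9 (0.0351), -0.56 for Hspa5 (0.0213), -0.42 for Herpud1 (0.0452) and -0.39 for P4hb (0.0328), with edgeR's adjusted p in each bracket. Without MHC CRE Only 1-3 the difference of Edem3 in the first comparison was 0.77 (adjusted p = 0.0337, edgeR), and none of the 6 in the second passed.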

How the results depend on the processing

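Members called were counted again under each alternative, and no log2 fold change that was called changed sign. Brackets give the genes called over all tested genes, which were 16018 in the main fit. For FKl/l MHC+ against MHC CRE Only (7 members, 299 genes), 4 were called with no filter on low counts (233 of 30118) and 4 with the replicate block (215). There 0 were called without the batch term (42), against a fold of 1.2 (17) or in batch 1 alone (78). For FKl/l MHC+ against FKl/l (1 member, 274 genes) 0 were called without the batch term (120) or against a fold of 1.2 (42). Against FKl/l MCK+ (1 member, 345 genes) 0 were called without the batch term (103), against a fold of 1.2 (17) or in batch 2 alone (171), and 2 by DESeq2 (578). For MHC CRE Only against FKl/l (0 members, 7 genes) DESeq2 called 4 (207). Among the 4 genotypes (5 members, 391 genes) 0 were called without the batch term (95), 3 in either batch alone (336 and 547) and 9 by DESeq2 (986). For genotype by batch (4 members, 787 genes) 1 was called under upper-quartile scaling (329). For that test 0 were called without the 3 libraries 1-3 and 2-3 of MHC CRE Only and 1-1 of FKl/l (61). The cause of these shifts was not tested. Leaving out each library in turn gave 0 to 2 members for FKl/l MHC+ against FKl/l, 3 to 7 against MHC CRE Only, 0 to 1 against FKl/l MCK+, 4 to 7 among the genotypes, 17 to 20 for batch and 0 to 6 for genotype by batch. For these ranges the genes called over all tested genes are not given. Same-numbered libraries did not deviate together (36 pairs, correlations -0.238 to 0.162, median -0.027), so the numbers were not read as pairs; the replicate block changed the count by over 1.5 times in the comparison with MHC CRE Only alone, where Hspa5, Pdia6 and Xbp1 were lost.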
